A study of Homo sapiens with 6 samples.

Results

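The genes described here are the receptors of the ERBB family, *EGFR*, *ERBB2*, *ERBB3* and *ERBB4*, 4 negative regulators of those receptors, *ERRFI1*, *LRIG1*, *RNF41* and *CBL*, and the adaptor *GRB2*. They were taken by their symbols from the deposited table, and all 9 were found among its 22807 genes. All 9 also passed the filter on low values, a mean of at least 1, which left 12862 genes to test. The study asked what loss of the phosphatase DUSP6 does to HER2+ breast cancer cells, and RNA of MDA-MB-453 cells was sequenced with this question. MDA-MB-453 is an established HER2+ breast cancer cell line, and all 6 libraries come from this 1 line, grown in RPMI with fetal bovine serum. The labels give 3 libraries as scrambled (SCR, genotype WT), which had a transient transfection with scrambled siRNA, and 3 as *DUSP6* knockdown (DUSP6_KD, genotype *DUSP6* KD), which had one with *DUSP6* siRNA. The study describes the use of several different siRNAs in each group. The labels do not tie them to libraries, so a library stands for a transfection with an siRNA that cannot be named here. Different siRNAs mean separate transfections, but the labels do not say whether these were done on separate cultures or days, so the p-values measure the spread between these libraries, part of which may be technical.

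ERBB receptors are tyrosine kinases of the cell surface that pair up when a ligand of the EGF or neuregulin family binds. HER2, the product of *ERBB2*, binds no known ligand itself and is the preferred partner of the others. HER3, the product of *ERBB3*, has little kinase activity but many docking sites for PI3K, so that the HER2-HER3 pair is a strong activator of AKT. In HER2+ breast cancer the *ERBB2* gene is usually amplified. ERRFI1 (MIG6) binds the kinase domains and blocks them, LRIG1 and CBL promote ubiquitination and degradation of the receptors, and RNF41 (Nrdp1) is the ubiquitin ligase best known for HER3. GRB2 links the phosphorylated receptors to SOS and RAS. DUSP6 dephosphorylates ERK1 and ERK2, kinases downstream of RAS.

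The recovered depth was between 45546981 and 85729785 reads per library. A value is given in TMM-scaled CPM, the reads of a gene relative to the library size after the TMM adjustment for composition, and 1 read was worth between 0.0121 and 0.0202 CPM. At this depth counting error was small for every member but *EGFR*, which had 58 to 97 reads per library. The intervals below come from the spread between libraries. The targeted gene *DUSP6* had 209, 110 and 114 CPM in scrambled siRNA replicates 1, 2 and 3, and 39.4, 24.5 and 35.2 in *DUSP6* siRNA replicates 1, 2 and 3. Exons of an unnamed gene on the opposite strand cover 28.6% of the *DUSP6* exons, so the *DUSP6* value is uncertain. All *DUSP6* siRNA libraries were below all scrambled ones, with a log2 fold change of -2.05 from limma on log2(value + 1) (standard error, SE, 0.25, Benjamini-Hochberg (BH) adjusted p in limma = 3.09e-04). Of the 10 luminal and apocrine markers fixed for this line, the lowest single value was 140 CPM, for *SPDEF*. Endothelial and leukocyte markers summed to at most 0.402 and 0.526.

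The 9 genes lie on 7 chromosomes of GRCh38. *ERBB2* (Entrez gene 2064) is at chr17:39688094-39728658 and *GRB2* (2885) at chr17:75318076-75405678. *ERBB3* (2065) at chr12:56080108-56103505 and *RNF41* (10193) at chr12:56202179-56221969 are neighbors, 98674 bases apart. The others are *EGFR* (1956) at chr7:55019017-55211628, *ERBB4* (2066) at chr2:211375717-212538802, *ERRFI1* (54206) at chr1:8011727-8026309, *LRIG1* (26018) at chr3:66378797-66501121 and *CBL* (867) at chr11:119206339-119308149.

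The sequences before the start sites are shown for members whose RNA differed between the groups, to set the start regions of genes that went different ways side by side. RefSeq windows (GRCh38.p14) were at hand for 7 of the 9 members, not for *ERBB3* and *CBL*. Each sequence runs 5′ to 3′ on the strand of the gene and ends at the base before the outermost RefSeq start. Capitals mark the letters CCGGAAG, a core bound by ETS factors, and CCAAT, each on either strand. The 4 windows are the following.
ERBB2, chr17:39688034-39688093, plus strand: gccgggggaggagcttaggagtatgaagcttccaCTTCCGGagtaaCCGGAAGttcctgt
ERBB4, chr2:212538803-212539052, minus strand: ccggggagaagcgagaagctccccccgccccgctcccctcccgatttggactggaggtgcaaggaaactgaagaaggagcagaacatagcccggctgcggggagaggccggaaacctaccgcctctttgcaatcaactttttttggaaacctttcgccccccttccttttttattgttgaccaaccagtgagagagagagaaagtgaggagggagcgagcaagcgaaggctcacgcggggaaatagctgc
ERRFI1, chr1:8026310-8026559, minus strand: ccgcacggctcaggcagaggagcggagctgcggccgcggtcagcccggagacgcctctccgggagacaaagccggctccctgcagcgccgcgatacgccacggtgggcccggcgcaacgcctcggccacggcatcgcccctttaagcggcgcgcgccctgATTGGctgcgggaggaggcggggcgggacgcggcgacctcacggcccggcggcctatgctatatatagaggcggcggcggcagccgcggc
LRIG1, chr3:66501122-66501371, minus strand: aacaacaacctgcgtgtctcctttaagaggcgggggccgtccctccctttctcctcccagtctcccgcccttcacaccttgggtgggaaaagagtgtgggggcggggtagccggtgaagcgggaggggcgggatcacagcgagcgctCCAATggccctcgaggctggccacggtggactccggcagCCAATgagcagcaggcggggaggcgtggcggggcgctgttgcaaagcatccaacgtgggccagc

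In the *ERBB2* window the ETS letters stood 2 times, beginning 26 and 14 bases before the start, once on each strand. Of 35116 RefSeq windows of 250 bases, 8.52% held the ETS letters at least once and 1.25% held them 2 or more times. The other members' windows held none. Only the 60 bases nearest to the start are shown for *ERBB2*. Of the 250 bases upstream, 214 lie in an exon of *PGAP3*, which is read in the other direction, and the first bases of the shown stretch belong to that exon too. The canonical *ERBB2* transcript of GENCODE starts 11970 bases downstream of this RefSeq start, so the window belongs to the outer start only. CCAAT stood 2 times in the *LRIG1* window, 1 time in that of *ERRFI1* and 1 time in that of *ERBB2*, outside the bases shown, against 32.0% of all windows with at least 1 match. The *ERBB4* window held neither. GTAAACA, the forkhead letters, was found in no member's window and CACGTG, the E-box letters, in none either, against 2.98% and 6.34% of all windows. GCCNNNGGC, the AP-2 letters, was absent from the 4 windows of the genes shown, against 19.8% of all windows with a match. Among the other RefSeq windows of the members, it stood 2 times before the outermost *EGFR* start and 1 time before an inner *LRIG1* start. The canonical *LRIG1* transcript of GENCODE starts 99 bases from the outermost RefSeq start, and this inner start stands at that distance downstream. The *LRIG1* window shown thus belongs to the outer start only. A match is a description of the letters and was not tied to the expression values.

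Of the 9 genes, 4 were lower and 1 was higher after *DUSP6* knockdown by limma (BH-adjusted p under 0.05), and 4 were not called. Lower were both receptors with high levels, *ERBB2* and *ERBB3*, and the negative regulators *ERRFI1* and *LRIG1*. *ERBB4* was higher. Of all 12862 genes tested, 24.7% were lower and 19.7% higher, so changes in both directions were common in these libraries. The median log2 fold change was -0.25 over the 9 members and -0.01 over all tested genes, whose quartiles were -0.32 and 0.27. In 6 of the 9 members the groups did not overlap, against 57.8% of all tested genes.

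**Figure D1:**
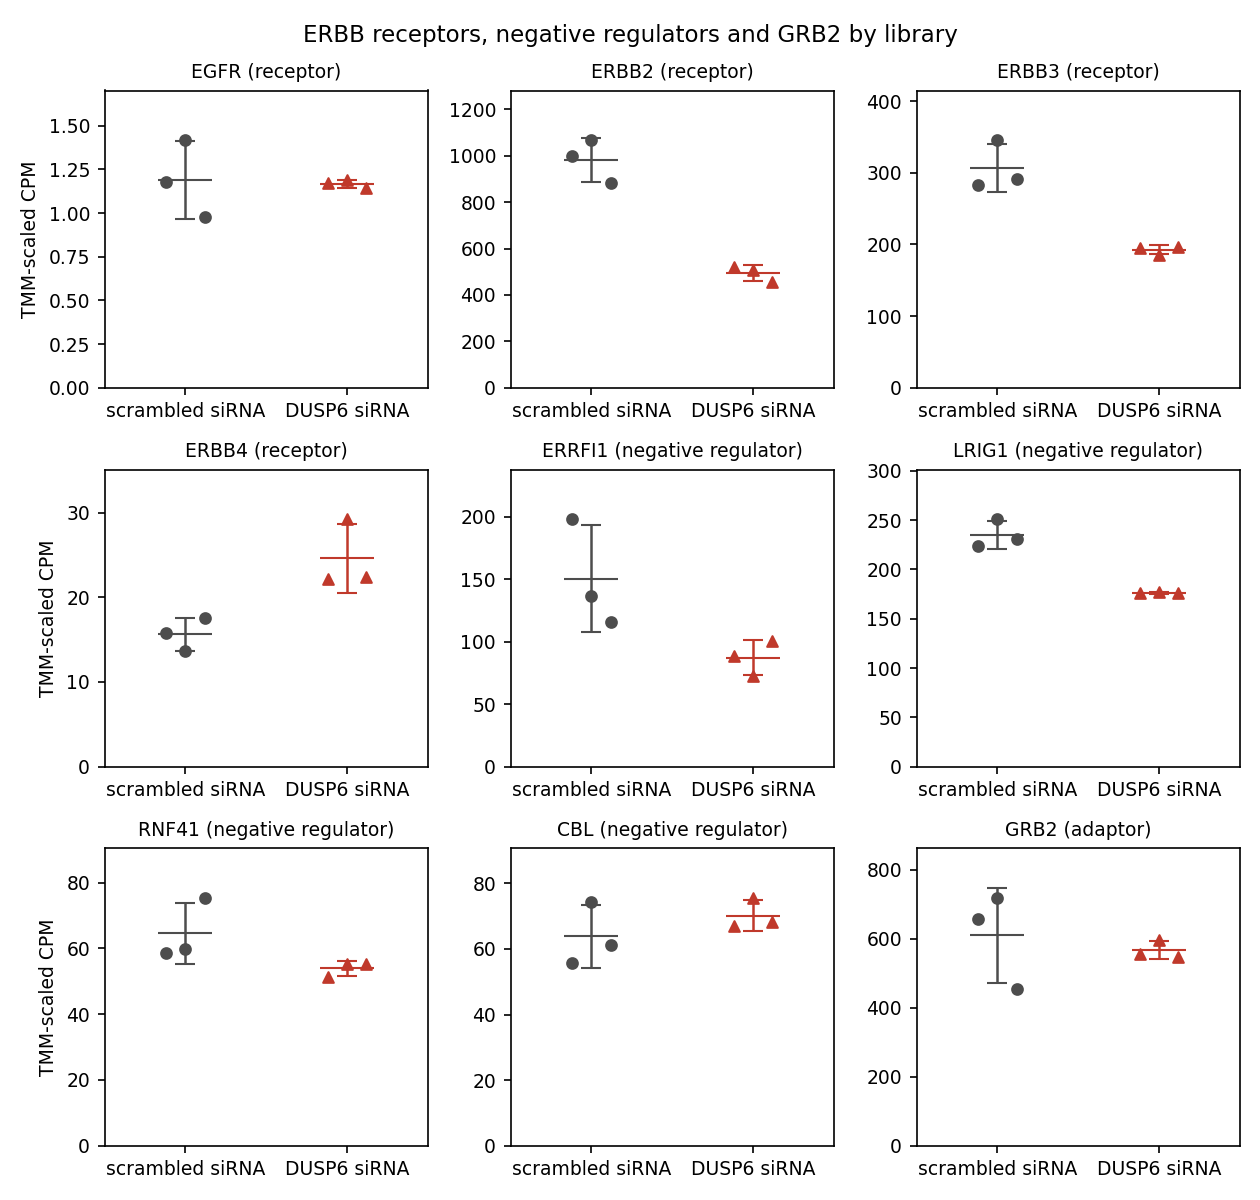
TMM-scaled CPM (vertical axis, from 0) of each member in the 3 scrambled siRNA libraries (grey circles) and the 3 *DUSP6* siRNA libraries (red triangles), with the mean as a line and the SD as bars. *ERBB2* had 882 to 1068 CPM with scrambled siRNA and 457 to 520 with *DUSP6* siRNA, while the values of *EGFR*, *CBL* and *GRB2* overlapped.

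*ERBB2* was the member with the largest difference. Its value was 1001, 1068 and 882 CPM in scrambled siRNA replicates 1, 2 and 3. In *DUSP6* siRNA replicates 1, 2 and 3 it was 520, 508 and 457. The gap between the groups was wide, since the highest *DUSP6* siRNA library was far below the lowest scrambled one. The mean went from 984 ± 94.3 (SD, n = 3) to 495 ± 33.6 (SD, n = 3), which is 0.503 times the scrambled level. The log2 fold change was -0.99 (SE 0.11, 95% interval -1.23 to -0.75, limma BH adjusted p = 1.59e-04). The two-sided exact permutation p over libraries was 0.1, and 3 libraries against 3 cannot go below it. Exons of other genes cover 6.93% of the *ERBB2* exons, mostly those of *MIEN1* on the opposite strand. The reads were assigned with the default settings of Rsubread, which do not use strand. Reads from the shared stretch cannot be told apart by strand, so the *ERBB2* value is uncertain. *MIEN1* itself had 60.2 to 76.5 CPM and was not called (log2 fold change 0.15, limma BH adjusted p = 0.204). Exons of *ERBB2* cover 28.0% of the *MIEN1* exons, so the *MIEN1* value is uncertain too.

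*ERBB3* was lower as well. Scrambled siRNA replicates 1, 2 and 3 had 283, 346 and 291 CPM, and *DUSP6* siRNA replicates 1, 2 and 3 had 195, 186 and 197. The *DUSP6* siRNA libraries lay close together and below every scrambled library. Their mean was 192 ± 5.99 (SD, n = 3) against 307 ± 34.1 (SD, n = 3), or 0.628 times the scrambled level, with a log2 fold change of -0.66 (SE 0.10, 95% interval -0.89 to -0.44, limma BH adjusted p = 8.77e-04).

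*ERBB4*, the receptor for neuregulins that has its own active kinase, went the other way. It had 15.8, 13.6 and 17.5 CPM in scrambled siRNA replicates 1, 2 and 3, and 22.2, 29.2 and 22.4 in *DUSP6* siRNA replicates 1, 2 and 3. Each *DUSP6* siRNA library was above each scrambled one, and replicate 2 was the highest. The mean rose from 15.6 ± 1.96 to 24.6 ± 4.03 (SD, n = 3 each), a log2 fold change of 0.62 (SE 0.14, 95% interval 0.30 to 0.93, limma BH adjusted p = 0.00724).

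*EGFR* was near the filter in both groups. The values were 1.18, 1.42 and 0.976 CPM with scrambled siRNA and 1.17, 1.19 and 1.14 with *DUSP6* siRNA. The *DUSP6* siRNA values fell within the range of the scrambled ones. The log2 fold change was -0.01 with a 95% interval from -0.27 to 0.25 on the log2(value + 1) scale (limma BH adjusted p = 0.951), and adding 1 makes the fold change of a gene at this level smaller than it is.

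Among the negative regulators, *ERRFI1* and *LRIG1* fell. *ERRFI1*, which is itself induced by growth factor signaling, had 198, 137 and 116 CPM in scrambled siRNA replicates 1, 2 and 3 and 88.4, 72.5 and 101 in *DUSP6* siRNA replicates 1, 2 and 3. The groups did not overlap, but scrambled siRNA replicate 1 was well above the other two and replicate 3 was close to the *DUSP6* siRNA libraries. The mean fell from 150 ± 42.8 to 87.2 ± 14.2 (SD, n = 3 each), or 0.580 times the scrambled level. The log2 fold change was -0.76 (SE 0.19, 95% interval -1.19 to -0.32, limma BH adjusted p = 0.0120). Without *DUSP6* siRNA replicate 2, the library with the lowest value, *ERRFI1* was not called (log2 fold change -0.63, limma BH adjusted p = 0.0623).

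*LRIG1*, a transmembrane protein with leucine-rich repeats, had 224, 251 and 230 CPM with scrambled siRNA and 176, 178 and 176 with *DUSP6* siRNA. The spread with *DUSP6* siRNA was an SD of 0.946 around a mean of 176, against 14.1 around 235 with scrambled siRNA, and no *DUSP6* siRNA library reached a scrambled one. This is 0.750 times the scrambled level and a log2 fold change of -0.41 (SE 0.08, 95% interval -0.60 to -0.22, limma BH adjusted p = 0.00418). Exons of *SLC25A26* on the opposite strand cover 37.9% of the *LRIG1* exons, so the *LRIG1* value is uncertain. *SLC25A26* had 5.63 to 8.69 CPM and was not called (log2 fold change 0.30, limma BH adjusted p = 0.0763). Exons of *LRIG1* cover 12.2% of the *SLC25A26* exons, so the *SLC25A26* value is uncertain too.

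*RNF41* and *CBL*, both ubiquitin ligases, were not called. *RNF41* had 58.6, 59.8 and 75.3 CPM with scrambled siRNA and 51.4, 55.2 and 55.2 with *DUSP6* siRNA. All *DUSP6* siRNA libraries were below the scrambled ones, by a small gap, and scrambled siRNA replicate 3 stood above the rest. The log2 fold change was -0.25 (SE 0.11, 95% interval -0.50 to 0.01, limma BH adjusted p = 0.103), so a decrease as large as that of *LRIG1* lies within the interval. *CBL* had 55.7, 74.4 and 61.3 CPM with scrambled siRNA and 66.9, 75.5 and 68.1 with *DUSP6* siRNA. Here the groups overlapped, and the interval of the log2 fold change of 0.14 ran from -0.12 to 0.41 (SE 0.12, limma BH adjusted p = 0.349).

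The adaptor *GRB2* had 657, 718 and 456 CPM in scrambled siRNA replicates 1, 2 and 3 and 556, 597 and 548 in *DUSP6* siRNA replicates 1, 2 and 3. Scrambled siRNA replicate 3 lay below all *DUSP6* siRNA libraries and the other two lay above them, so that the groups overlapped. The log2 fold change was -0.08 (SE 0.16, 95% interval -0.44 to 0.28, limma BH adjusted p = 0.705). The result depended on single libraries. Without scrambled siRNA replicate 3 *GRB2* was called lower (log2 fold change -0.28, limma BH adjusted p = 0.0211), and without scrambled siRNA replicate 2 its log2 fold change was 0.05 (limma BH adjusted p = 0.811).

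**Figure D2:**
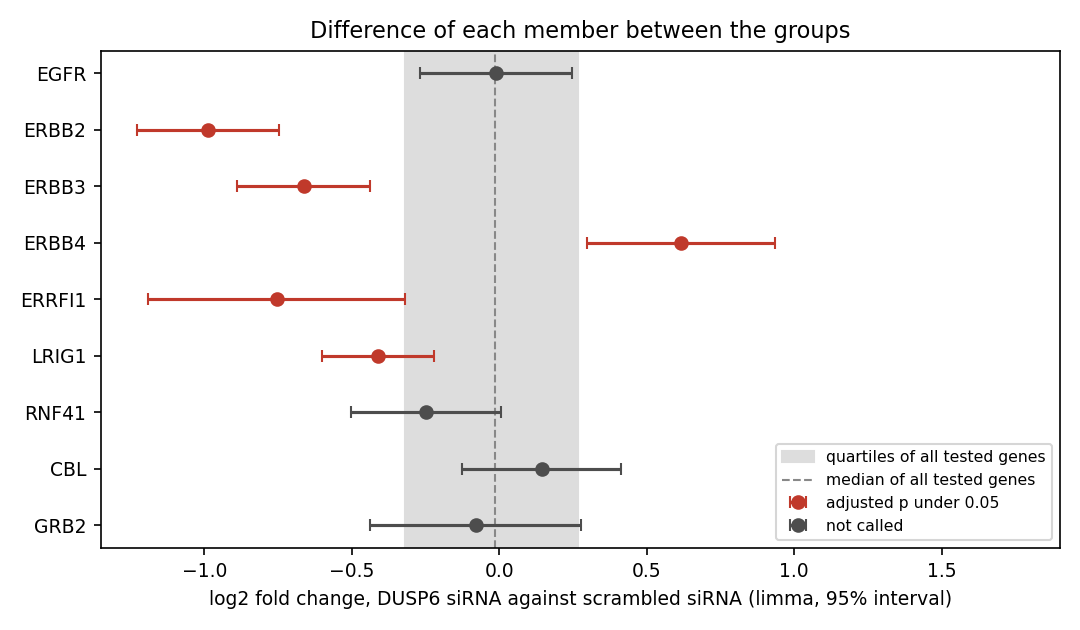
Log2 fold change of each member, *DUSP6* siRNA against scrambled siRNA, from limma on log2(value + 1) (points, red where the adjusted p is under 0.05), with 95% intervals as bars. The grey band runs between the quartiles of all 12862 tested genes, and the dashed line is their median, -0.01. *ERBB2* is farthest to the left at -0.99 and *ERBB4* is the called member to the right, at 0.62.

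The levels of the members can be compared with each other only per transcript length, for which the values were divided by the length in kb of the canonical GENCODE transcript. With scrambled siRNA the order from high to low was *ERBB2*, *GRB2*, *ERBB3*, *ERRFI1*, *LRIG1*, *RNF41*, *CBL*, *ERBB4* and *EGFR*. *ERBB2* had 216 ± 20.7 TMM-scaled CPM per kb (SD, n = 3), above 98.3% of 12347 tested genes with a length. *GRB2* had 187 ± 42.0 per kb, and the 2 overlapped between libraries. *ERBB3* at 54.6 ± 6.07, *ERRFI1* at 48.6 ± 13.8 and *LRIG1* at 43.9 ± 2.63 per kb overlapped, each with the next of these 3, and all lay above *RNF41*. *RNF41* at 11.5 ± 1.67, *CBL* at 5.71 ± 0.861, *ERBB4* at 1.29 ± 0.162 and *EGFR* at 0.120 ± 0.0223 per kb were each separate from the next. *EGFR* thus stood above only 0.6% of the tested genes with a length, in cells where *ERBB2* is among the highest. Genes under the filter on the mean, close to which *EGFR* lies, are not part of this comparison.

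With *DUSP6* siRNA the order changed at 2 places. *GRB2* at 173 ± 8.03 per kb was now above *ERBB2* at 109 ± 7.37 (SD, n = 3), without overlap. *LRIG1* at 32.9 ± 0.176 was above *ERRFI1* at 28.2 ± 4.58 per kb, and it overlapped with *ERBB3* at 34.3 ± 1.07 per kb. *LRIG1* and *ERRFI1* were separate only by a slim gap, 32.8 against 32.5 per kb in *DUSP6* siRNA replicate 3. The *LRIG1* value is also uncertain because of its exon overlap, so this change of order is weak. *RNF41* at 9.64 ± 0.388, *CBL* at 6.28 ± 0.419, *ERBB4* at 2.03 ± 0.333 and *EGFR* at 0.118 ± 0.00221 per kb kept their places.

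**Figure D3:**
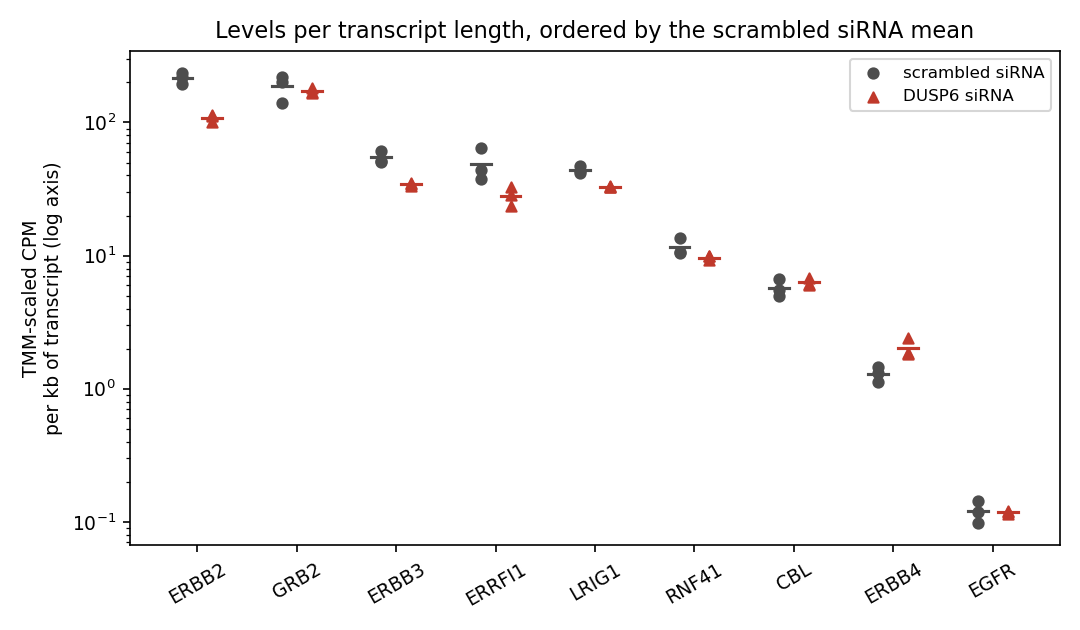
TMM-scaled CPM per kb of transcript (vertical log axis) for each member in the 3 scrambled siRNA libraries (grey circles) and the 3 *DUSP6* siRNA libraries (red triangles), with the group mean as a line. *ERBB2* at 216 and *GRB2* at 187 are the highest with scrambled siRNA, and *EGFR* at 0.120 is the lowest.

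The makeup of the receptor RNA shifted with the sum. Per kb, the 4 receptors together summed to 272 ± 25.2 CPM with scrambled siRNA and 145 ± 6.97 with *DUSP6* siRNA (SD, n = 3 each). *ERBB2* made up 80.9%, 78.9% and 78.4% of that sum in scrambled siRNA replicates 1, 2 and 3, and 75.7%, 75.8% and 73.0% in *DUSP6* siRNA replicates 1, 2 and 3. *ERBB2* therefore stayed the main receptor RNA in every library. *ERBB3* made up 20.1% ± 1.32 and 23.7% ± 1.64, *ERBB4* 0.482% ± 0.104 and 1.40% ± 0.219, and *EGFR* 0.0439% ± 0.00413 and 0.0813% ± 0.00278 of the sum with scrambled and with *DUSP6* siRNA (SD, n = 3). A share can rise because the rest of the sum falls. *EGFR* stayed at 0.120 and 0.118 per kb and *ERBB3* itself was lower, so their larger shares restate the larger fall of *ERBB2*. *ERBB4* also rose by itself, from 1.29 to 2.03 per kb. These are shares of RNA and not of receptor protein. In bulk RNA, fewer cells that express a gene and less of its RNA per cell cannot be told apart.

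A ratio of 2 genes within a library does not depend on how the library was scaled. The log2 ratio of *ERBB3* to *ERBB2*, the pair that forms the HER2-HER3 receptor, was -1.82, -1.63 and -1.60 in scrambled siRNA replicates 1, 2 and 3. In *DUSP6* siRNA replicates 1, 2 and 3 it was -1.42, -1.45 and -1.21. All *DUSP6* siRNA libraries were higher, so *ERBB2* fell more than *ERBB3*, by a difference of 0.32 (two-sided exact permutation p = 0.1, again the lowest value possible). The ratios of the other members to *ERBB2* were added after the values had been seen. Of all 8 ratios, 7 were higher in every *DUSP6* siRNA library than in any scrambled one, each with a Benjamini-Hochberg adjusted exact permutation p = 0.114. All 8 share *ERBB2* as the denominator, so a gene that did not change would show a difference near 0.99, the size of the fall of *ERBB2* itself, and the count restates that fall. The differences are therefore given as a description. The difference was largest for *ERBB4*, at 1.64, then 1.13 for *CBL*, 0.98 for *EGFR*, 0.91 for *GRB2*, 0.74 for *RNF41* and 0.58 for *LRIG1*. *ERRFI1* was the exception, with a difference of 0.23 and overlapping groups (two-sided exact permutation p = 0.5). Relative to its most abundant receptor, the RNA of *ERRFI1* was thus not separated between the groups.

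**Figure D4:**
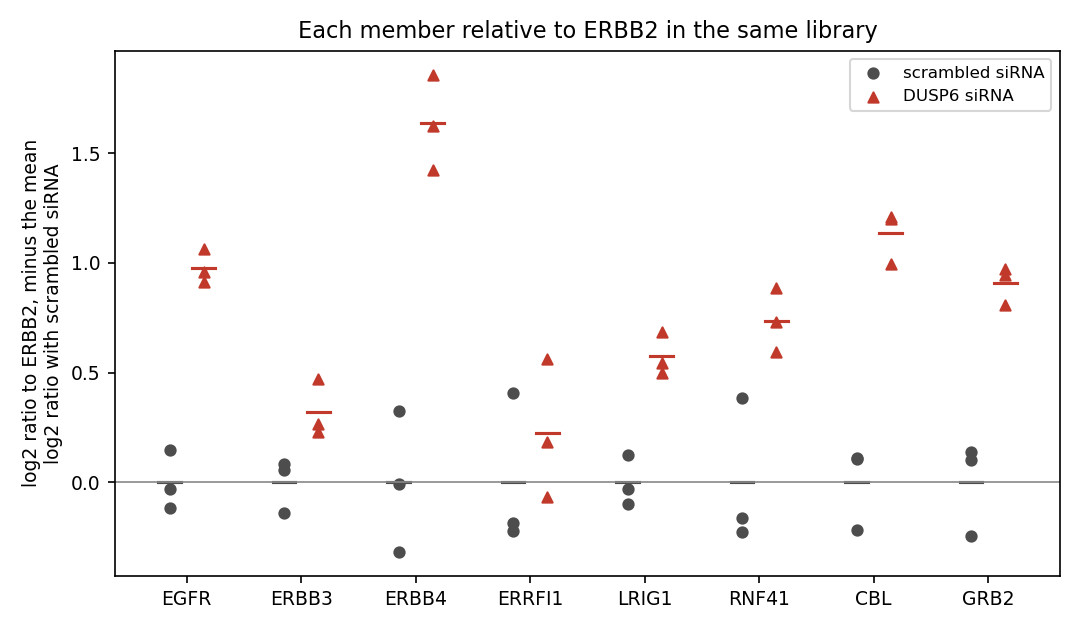
Log2 ratio of each other member to *ERBB2* within a library, minus the mean log2 ratio of the scrambled siRNA libraries (vertical axis), for the 3 scrambled siRNA libraries (grey circles) and the 3 *DUSP6* siRNA libraries (red triangles), with the group mean as a line. The *DUSP6* siRNA mean is 1.64 for *ERBB4* and 0.32 for *ERBB3*, and the groups overlap for *ERRFI1*.

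The genes beside the members on the chromosome were looked at after the values had been seen. Over all tested genes, 24.7% were lower and 19.7% higher, and the counts of neighbors were not tested against these shares. Within 100 kb of *ERBB2*, in the region that is amplified together in HER2+ tumors, 5 genes were tested, of which 2 were higher, 1 was lower and 2 were not called. *GRB7*, an adaptor that binds HER2, lies 9280 bases from *ERBB2* and had 74.8, 74.5 and 65.0 CPM with scrambled siRNA and 38.8, 32.9 and 36.1 with *DUSP6* siRNA. Its libraries did not overlap, and its log2 fold change of -0.97 (limma BH adjusted p = 1.44e-04) was close to that of *ERBB2*. *PGAP3*, which starts 37 bases from *ERBB2* and is read in the other direction, was higher (log2 fold change 0.50, limma BH adjusted p = 0.0436), and so was *STARD3* (0.30, limma BH adjusted p = 0.0396). The decrease of *ERBB2* was therefore not shared by all genes of the region. Within 100 kb of *ERBB3*, 5 of 12 tested genes were lower by limma and the other 7, *RNF41* among them, were not called. The largest fall among the lower ones was that of *MYL6* (log2 fold change -1.55, limma BH adjusted p = 1.47e-05). *SUOX*, *RPS26* and *MYL6B* had log2 fold changes of -0.391, -0.463 and -0.455. The exon overlap of *MYL6*, *SUOX*, *RPS26* and *MYL6B* was not looked at. *PA2G4* (EBP1), which binds HER3 and lies 1054 bases away, had a log2 fold change of -0.50 (limma BH adjusted p = 0.0120).

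Beyond the members, 4 lists of genes of the pathway were read from the same fit. They were written by hand with earlier results of these data known, and no list was tested as a set. Over all tested genes, 24.7% were lower and 19.7% higher, and the counts of each list stand beside these shares. Of the adaptors and docking proteins, 22 of 26 were tested, and 3 were higher, 7 lower and 12 not called, with a median log2 fold change of -0.14. *GRB10*, an adaptor that can restrain insulin and growth factor receptors, had 16.6, 17.2 and 32.5 CPM with scrambled siRNA and 90.2, 86.2 and 94.9 with *DUSP6* siRNA. It rose in all *DUSP6* siRNA libraries, with scrambled siRNA replicate 3 above the other two (log2 fold change 2.05, limma BH adjusted p = 1.49e-04). *GAB2*, a docking protein, rose by 0.73 on the log2 scale. *GAB1*, its relative that recruits PI3K, dropped by 0.93 and *VAV3*, a guanine nucleotide exchange factor, by 0.65. The regulatory PI3K subunits *PIK3R1*, *PIK3R2* and *PIK3R3* and the exchange factor *SOS1* were also lower (log2 fold changes -0.54, -0.27, -0.58 and -0.59). *PIK3R2* was close to the threshold (limma BH adjusted p = 0.0490). *STAT5B* was also higher (log2 fold change 0.55, limma BH adjusted p = 0.0107). The PI3K subunits, *SOS1* and *STAT5B* are named here after their values were seen.

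Of the 26 genes of receptor turnover and trafficking, all were tested, with 2 higher, 10 lower and 14 not called and a median log2 fold change of -0.27. *EPS15*, an endocytic adaptor, had 74.8, 77.8 and 48.7 CPM with scrambled siRNA and 28.8, 25.5 and 27.5 with *DUSP6* siRNA. Even the lowest scrambled library was above every *DUSP6* siRNA library, and the log2 fold change was -1.24 (limma BH adjusted p = 5.10e-04). *WWP1*, a ubiquitin ligase, fell by 0.99 on the log2 scale, *STAM2*, part of the sorting complex on endosomes, by 0.55, *SORL1*, a sorting receptor, by 0.47 and *CD2AP*, a CBL-binding adaptor, by 0.46. *CBLB*, the closest relative of *CBL*, was called higher (log2 fold change 0.40, limma BH adjusted p = 0.0465) although its groups overlapped.

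The list of other restraining or supporting partners had 22 of 24 genes tested, with 1 higher, 7 lower and 14 not called and a median log2 fold change of -0.11. *MUC4*, a membrane mucin that binds HER2, had 10.1, 11.5 and 8.18 CPM with scrambled siRNA and 4.71, 1.68 and 4.17 with *DUSP6* siRNA. It was low in all *DUSP6* siRNA libraries and lowest in replicate 2, with a log2 fold change of -1.34 (limma BH adjusted p = 0.00361). *CDC37*, the HSP90 co-chaperone of kinases, fell by 0.79 on the log2 scale. *RIN1*, a RAB5 exchange factor, fell by 0.73, *PTPN12*, a tyrosine phosphatase, by 0.65 and *TNK2*, a kinase that binds CDC42, by 0.55. The *LRIG1* relatives *LRIG2* and *LRIG3* had log2 fold changes of 0.20 and -0.05 and were not called.

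Of 27 transcription factors and other regulators tied to transcription of *ERBB2*, *ERBB3* or *EGFR*, 25 were tested, and 3 were higher, 18 lower and 4 not called. The median log2 fold change of this list, -0.57, was the lowest of the 4, against -0.01 over all tested genes. Of all tested genes, 24.7% were lower and 19.7% higher. The genes of this list were picked with earlier results known, so its rank was not tested. *ELF3*, an epithelial ETS factor, had 71.8, 95.1 and 72.1 CPM with scrambled siRNA and 23.3, 13.8 and 20.1 with *DUSP6* siRNA. It was several times lower in every *DUSP6* siRNA library, with a log2 fold change of -2.03 (limma BH adjusted p = 7.02e-05). *EGR1*, an immediate early gene induced through ERK, had 221, 190 and 123 CPM with scrambled siRNA and 88.0, 18.7 and 57.1 with *DUSP6* siRNA. It varied widely between libraries, and the groups did not overlap (log2 fold change -1.90, SE 0.47, limma BH adjusted p = 0.0104). *ETV4*, an ETS factor that ERK signaling induces, fell by 1.18 on the log2 scale, from 11.6, 2.45 and 3.64 to 1.78, 1.28 and 1.75 CPM. Scrambled siRNA replicate 1 was the highest library for *ETV4*, as for *DUSP6* and *ERRFI1*. The epithelial splicing factors *ESRP2* and *ESRP1*, which are no transcription factors, fell by 1.51 and 1.17, and 5.80% of the exons of *ESRP2* overlap exons of other genes, mostly those of *NFATC3* on the opposite strand, so its value is uncertain. The AP-2 factors *TFAP2A*, *TFAP2B* and *TFAP2C*, the classic activators of *ERBB2*, had log2 fold changes of -0.67, -0.54 and -0.60. They are named after their values were seen. Exons of other genes cover more than 5% of the exons of *CD2AP*, *ELF3*, *LRIG2*, *PA2G4*, *PIK3R2*, *PIK3R3*, *RIN1*, *SOS1*, *TFAP2A* and *TNK2* too, from 5.46% for *SOS1* to 76.4% for *PIK3R2*, so these values are uncertain.

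**Figure D5:**
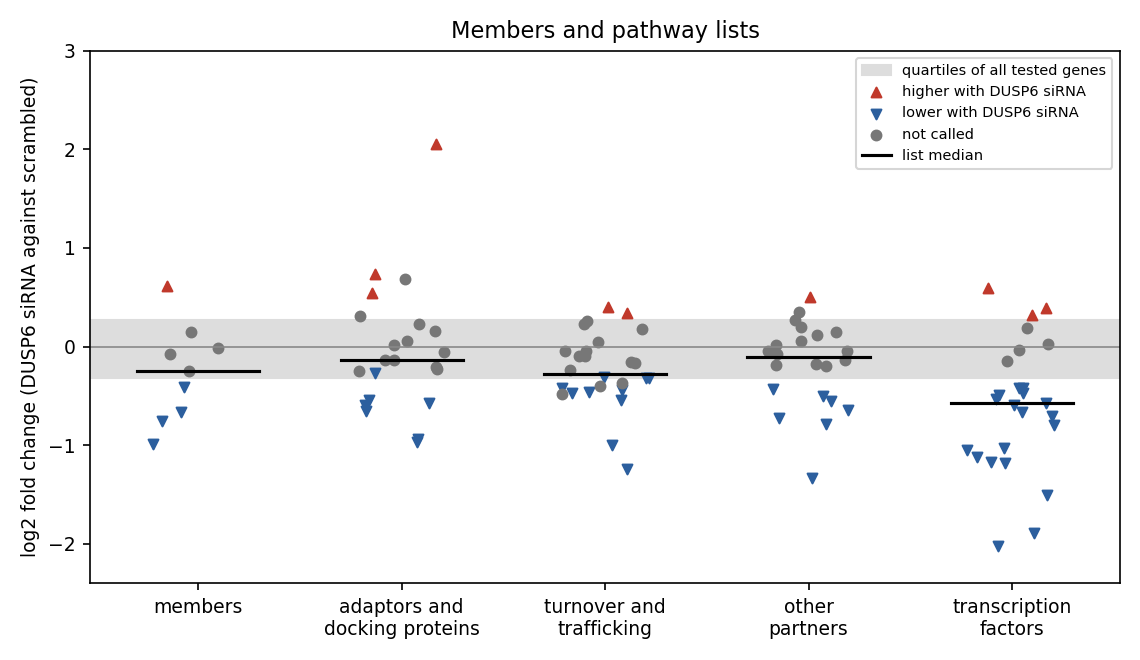
Log2 fold changes (vertical axis) of the tested genes among the members and in the 4 pathway lists, as red triangles where called higher and blue triangles where called lower with *DUSP6* siRNA, and as grey circles where not called. Black lines are the list medians, -0.25 for the members and -0.57 for the transcription factors, and the grey band runs between the quartiles of all tested genes.

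Other genes moved with the groups in the same libraries, where 24.7% of all tested genes were lower and 19.7% higher. All 17 tested genes of the interferon response list were higher with *DUSP6* siRNA, with a median log2 fold change of 4.35. *IFIT1*, a marker of that response, had 4.58, 3.81 and 12.6 CPM with scrambled siRNA and 1043, 986 and 1096 with *DUSP6* siRNA. Scrambled siRNA replicate 3, the library that was low for *GRB2*, was the highest scrambled library for *IFIT1*. Of the 10 luminal and apocrine markers, *ERBB2* included, 8 were lower, 1 was higher and 1 was not called, and their sum was 5697 to 6906 with scrambled siRNA and 3742 to 4125 CPM with *DUSP6* siRNA. The basal or mesenchymal markers summed to 9.26 to 16.9 with scrambled siRNA and 15.9 to 21.9 with *DUSP6* siRNA, with 3 of 6 tested, 2 higher and 1 lower. *KRT17*, a basal keratin, had 0.536 to 1.05 CPM with scrambled siRNA and 12.1 to 17.1 with *DUSP6* siRNA, and *ZEB1*, a mesenchymal transcription factor, 0.431 to 0.766 and 1.55 to 1.80. *TP63*, a basal transcription factor, went the other way, from 6.97 to 15.2 CPM down to 1.37 to 1.96. *KRT5*, *KRT14* and *VIM* were below the filter, with at most 0.920, 0.404 and 0.0607 CPM. Exons of other genes cover 10.2% of the *KRT17* exons and 24.6% of the *VIM* exons, so these values are uncertain. The sum of the fibroblast markers, 80.9 to 106 and 162 to 192, came almost wholly from *COL1A1*, while *COL1A2*, *COL3A1* and *PDGFRB* reached at most 0.268. The part of the interferon response or of the luminal program in the lower *ERBB2* and *ERBB3* values was not tested.

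The genes whose pattern over the 6 libraries was most like that of *ERBB2*, by Pearson's r of log2(value + 1) among 9561 genes with a mean of at least 10, were *SH3GLB2* (r = 0.999), *CABLES1* (r = 0.999) and *RTTN* (r = 0.998). For *ERBB3*, *RAB3GAP1* (r = 0.998) and *SDCBP* (r = 0.998) were among the 3 most alike. The 6 libraries form 2 groups, so a gene that is lower with *DUSP6* siRNA and varies little within the groups has a high r. *CABLES1*, for example, had 31.8, 33.7 and 28.7 CPM with scrambled siRNA and 15.9, 15.9 and 14.7 with *DUSP6* siRNA, close to the proportions of *ERBB2*.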

How the data were processed

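RNA of 3 scrambled siRNA and 3 *DUSP6* siRNA libraries was sequenced (TruSeq Stranded mRNA). Per the study's methods, reads were aligned to hg38 and assigned to RefSeq genes with Rsubread, and edgeR is named in the submitters' notes. The table that the authors deposited holds a linear signal value for each gene in each library. Dividing the values of a library by its smallest step gave whole reads for 100% of the values (within 0.001 of a read), and the steps were those of edgeR's TMM scaling, so the values are TMM-scaled CPM. They are already adjusted for depth and composition.

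limma 3.58.1 in R 4.3.3 (lmFit, eBayes with a trend) was run on log2(value + 1) of the 12862 genes with a mean of at least 1. The p-values were adjusted after Benjamini-Hochberg (BH), and a gene was called where the adjusted p was under 0.05. Adding 1 shrinks the fold changes of low genes. limma, edgeR 4.0.16 and DESeq2 1.42.0 were tested on simulated data. Named were all members, up to 5 genes per pathway list with the largest change and no overlap between groups, *DUSP6*, and the 3 genes most like *ERBB2* and *ERBB3*. A gene most like *ERBB3* that the rule names is not reported here. Any other gene was chosen after its values were seen. The members and lists were chosen with earlier results of these data known. Genes with over 5% of their exon sequence in exons of other GENCODE genes were reported as uncertain. Reads were assigned to RefSeq genes, so this share does not measure the size of an error in the value. The fits were repeated without each library in turn, without the trend, with a replicate block, with quantile normalization or median-of-ratios scaling, with a pseudocount of 0.1, without the filter and with a minimum mean of 10. edgeR and DESeq2 on the recovered reads were added after the data had been seen.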

Additional observations from a re-analysis of the deposited data

How the results depend on the processing

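*ERBB2*, *ERBB3*, *ERBB4*, *LRIG1*, *RNF41*, *CBL* and *DUSP6* kept their direction and side of the threshold under all 15 alternatives, with log2 fold changes from -1.06 to -0.79 for *ERBB2*, -0.72 to -0.45 for *ERBB3*, 0.49 to 0.70 for *ERBB4* and -0.45 to -0.23 for *LRIG1*. The ends nearest to 0 for *ERBB2*, *ERBB3* and *LRIG1* came from quantile normalization, where *LRIG1* was close to the threshold (limma BH adjusted p = 0.0465). *ERRFI1* ranged from -0.92 to -0.54 with each library left out, and lost its call without *DUSP6* siRNA replicate 2. *GRB2* ranged from -0.277 to 0.051 with each library left out, was called lower without scrambled siRNA replicate 3 and changed sign, uncalled, under quantile normalization (0.156) and without scrambled siRNA replicate 2. *EGFR*, never called, ranged from -0.082 to 0.064 with each library left out and had -0.127 under quantile normalization, 0.017 under edgeR and 0.003 under DESeq2. It is absent from the fit with a mean of at least 10. The number of members lower ran from 3 to 5. The number of genes higher, 2540, was 1639 with a mean of at least 10, where fewer genes are tested, and 1574 to 3183 with each library left out, lowest without *DUSP6* siRNA replicate 2. Quantile normalization gave 2963 higher and 2876 lower genes, edgeR 2771 and 2969, and DESeq2 2905 and 3268. The replicate block changed no call of a member (*ERBB2* -0.99) and gave 2495 higher and 3096 lower genes. With libraries paired by replicate number, the difference in the log2 ratio of *ERBB3* to *ERBB2* was again 0.32. Its two-sided exact permutation p, from flipping the signs of the paired differences, was 0.25, the lowest value this test can give. No pairing by replicate number was seen, as same-numbered deviations from the group means correlated at 0.005, 0.087 and -0.076. With so few libraries per group, these values cannot show whether same-numbered libraries shared a culture or day.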
